A study of Bos taurus with 6 samples.

Results

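The genes described here encode cullin-RING ubiquitin ligase parts: the F-box proteins with FBXO, FBXL or FBXW symbols, the cullins, and the SCF components SKP1 and SKP2. They were chosen by symbol alone, as every entry of the RPKM table named FBXO, FBXL or FBXW plus a number (without FBXO5 and FBXO43), CUL plus a number, SKP1, SKP2 or RBX1. The choice gave 82 of 20707 Ensembl loci under 68 symbols, of which 66 loci were F-box genes (40 FBXO, 18 FBXL and 8 FBXW), 7 were cullins, 4 carried the symbol SKP1 and 5 the symbol SKP2. No locus carried the symbol RBX1, CUL7 or CUL9, and those genes were not analysed here under their own symbols.

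The study sequenced polyadenylated RNA from individual oocytes of cattle (Bos taurus) taken from abattoir ovaries. Germinal vesicle (GV) oocytes, arrested in meiotic prophase, were taken at aspiration of the follicles, and the MII group reached metaphase of the second meiotic division over 24 hours of in vitro maturation. No genotype, strain, age or further treatment is given for either stage. The table holds 3 GV libraries (GV14, GV14c and GV15) and 3 MII libraries (MII14c, MII15 and MII15c), and values below stand in that order.

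SCF ligases are built on the scaffold CUL1. Its one end holds the RING protein RBX1, which recruits a ubiquitin-loaded E2 enzyme, and its other end holds SKP1, an adaptor that binds the F-box of an interchangeable F-box protein, which in turn picks the substrate. The other cullins work the same way with other adaptors, and attachment of the small protein NEDD8 to a cullin switches the ligase on until the COP9 signalosome removes it. In oocytes these ligases are known for destroying regulators of the meiotic cell cycle.

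Of the 82 loci, 42 reached a mean of 1 RPKM over the 6 libraries and were tested, 40 lay below that level, and 5 of those 40 were at 0 in every library. Among the 42, 8 were higher and 6 lower in MII at a limma adjusted p under 0.05, and 28 did not pass. Over all 8671 genes tested, 13.4% were higher, 26.9% lower and 40.3% either, against 19% higher and 14.3% lower among these loci. The median log2 change (MII minus GV, on log2(RPKM + 1)) was 0.18 for the 42 and -0.16 for all tested genes. The 2 stages did not overlap for 22 of the 42 loci, 12 with MII higher and 10 with MII lower, and for 51.9% of all tested genes.

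The genes that rose were SKP2, FBXL4, FBXO45, FBXO48, FBXO4, FBXO33, the abundant CUL1 locus and the abundant SKP1 locus. The genes that fell were FBXO8, CUL3, FBXL14, FBXO15, FBXO22 and FBXL13. By the ratio of stage means 13 of these 14 changed by at least 2-fold, SKP1 being the exception. A fit without GV14c and MII15c, the columns that match no sample title, called 4 members higher and 2 lower, and kept 6 of the 14 calls: SKP2, FBXL4, FBXO45, FBXO4, FBXO8 and FBXL13. Over all genes that fit called 357 higher and 1286 lower of 8456, in place of 1162 and 2329 of 8671. Under quantile normalization, where the median of all genes moved from -0.16 to 0.22, members counted 15 higher and 5 lower, so that 25% of the calls were lower in place of 42.9%. All genes counted 2087 higher and 1805 lower there.

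**Figure D1:**
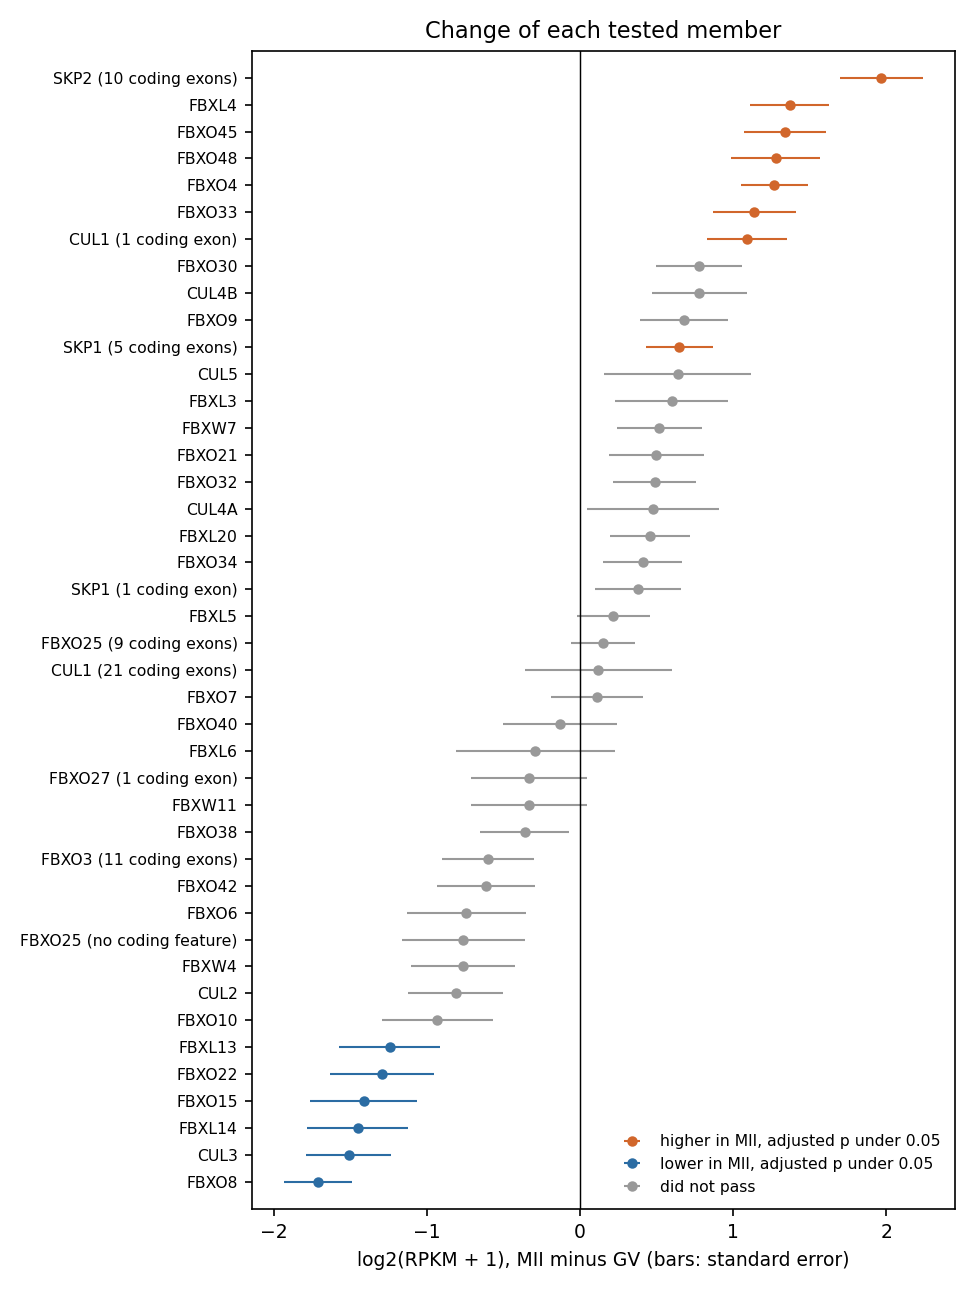
Log2 change from GV to MII on log2(RPKM + 1), with bars of 1 standard error over 3 libraries a stage, for the 42 members tested, coloured by whether limma's adjusted p was under 0.05. SKP2 has the largest rise, 1.97, and FBXO8 the largest fall, -1.71.

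SKP1, the adaptor shared by all SCF ligases, had a locus among the highest in RPKM at both stages. Its 5-exon locus (ENSBTAG00000025191, chr7:47389721-47398435, coding sequence of 492 bases on the minus strand) measured 1674, 1841 and 2175 RPKM in the GV libraries and 2477, 3340 and 3154 RPKM in the MII libraries. Every MII library lay above every GV library. The mean was 1896 ± 255 RPKM in GV and 2991 ± 454 in MII (SD, n = 3), a 1.58-fold rise (log2 change 0.65 ± 0.22 SE, limma adjusted p = 0.0398). By level it ranked number 18 of all loci in GV and number 10 in MII. This call was lost in 9 of 17 alternatives, among them each fit that left out GV14 (adjusted p = 0.124), GV14c (0.0795), GV15 (0.054), MII15 (0.0898) or MII15c (0.143). In the deposited annotation only 2856 reads support transcripts at this locus, 14 of them spliced. How that support relates to the RPKM of the locus was not tested.

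The other 3 loci named SKP1 were low. The highest, a single-exon locus (ENSBTAG00000046232, chr9:28544216-28544698, coding sequence of 483 bases), measured 6.79, 4.93 and 5.17 RPKM in GV and 7.81, 6.46 and 8.51 in MII. Its stages overlapped, with a log2 change of 0.38 ± 0.28 (limma adjusted p = 0.321). The remaining pair, ENSBTAG00000045898 and ENSBTAG00000046844, stayed at or below 0.405 RPKM in every library. Reads from near-identical loci can be split or shared by the counting, so levels of the SKP1 loci, the abundant one included, are uncertain.

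CUL1, the SCF scaffold, also rose, but the abundant locus of that name is not the many-exon gene. The locus ENSBTAG00000047294 (chr4:41064513-41066816, plus strand, coding sequence of 2304 bases in 1 exon) measured 1065, 647 and 1142 RPKM in GV and 1758, 2165 and 2007 in MII. All MII values lay above all GV values, and the mean went from 951 ± 267 to 1976 ± 205 RPKM (SD, n = 3), 2.08-fold (log2 change 1.09 ± 0.26, limma adjusted p = 0.00892). The call was lost only without both untitled columns (log2 change 0.82, adjusted p = 0.0968). In the deposited annotation 98120 reads support transcripts at this locus, 27 of them spliced.

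The 21-exon CUL1 locus was far lower. ENSBTAG00000008736 (chr4:112756838-112809708, coding sequence of 2331 bases) measured 1.78, 1.04 and 2.4 RPKM in GV and 4.09, 0.393 and 2.5 in MII, with 660 supporting reads of which 40 were spliced. The MII libraries held both its highest and its lowest value. Its log2 change was 0.12 (95% interval -0.97 to 1.21, limma adjusted p = 0.862). The single-exon and the 21-exon coding sequences are of like length, and how far reads of one were counted at the other was not tested, so the split of CUL1 signal between them is uncertain.

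SKP1 stood 1.57, 2.85 and 1.9 times above the abundant CUL1 locus in the GV libraries and 1.41, 1.54 and 1.57 times above it in the MII libraries, per RPKM. Levels of different genes are compared here only in RPKM, which is scaled to gene length. The SKP1 and CUL1 levels in these ratios are uncertain, as said above. The abundant CUL1 locus held 92.8% to 95.7% of all cullin RPKM in GV and 97% to 97.9% in MII. It stood 20.5 to 43.7 times above the next cullin in GV and 56.5 to 114 times above it in MII.

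**Figure D2:**
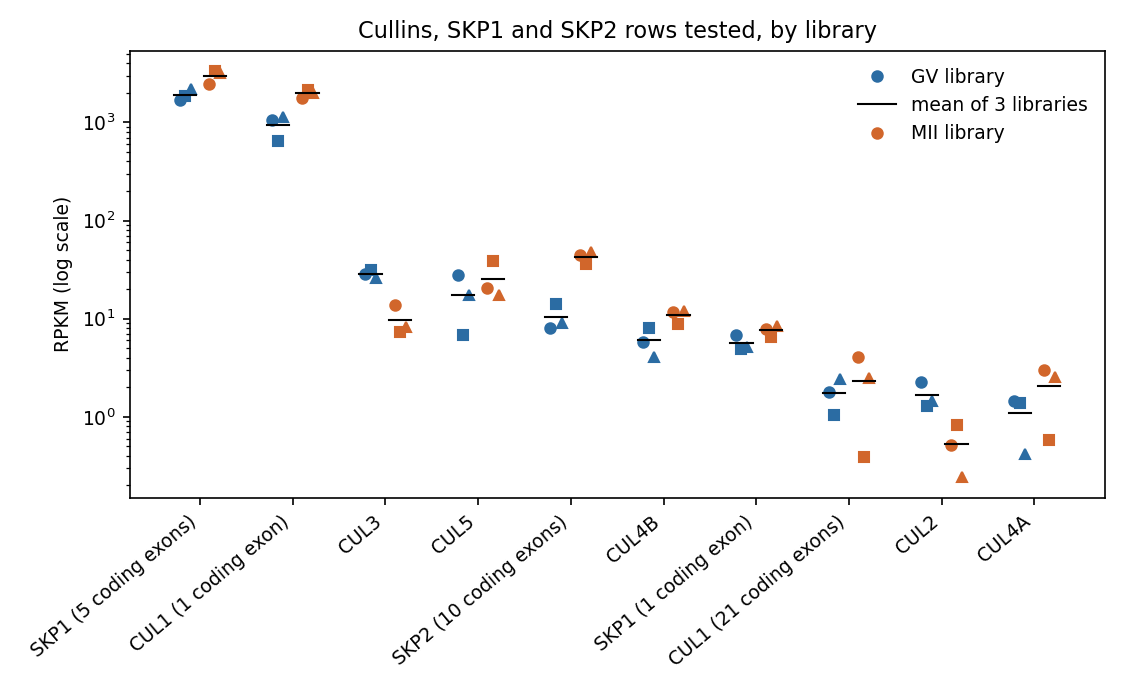
RPKM in each of the 3 GV and 3 MII libraries (log axis) for the SKP1, SKP2 and cullin loci tested, with 1 point shape per library and lines at the stage means. The 5-exon SKP1 and single-exon CUL1 loci lie between 647 and 3340 RPKM, while no other cullin exceeds 38.3 RPKM.

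The remaining cullins differed in direction. CUL3, the scaffold that takes BTB-domain proteins as substrate receptors, fell. Its locus ENSBTAG00000021769 (chr2:113372692-113486955, 16 coding exons) measured 28.6, 31.6 and 26.1 RPKM in GV and 13.7, 7.37 and 8.27 in MII. The stages did not overlap, the means were 28.8 ± 2.72 and 9.78 ± 3.42 RPKM (SD, n = 3), and the log2 change was -1.51 ± 0.28 (limma adjusted p = 0.00321). Without both untitled columns the adjusted p was 0.0519.

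CUL5, the scaffold of SOCS-box receptors, varied widely within each stage. It measured 27.9, 6.85 and 17.4 RPKM in GV and 20.5, 38.3 and 17.6 in MII (ENSBTAG00000012882, chr15:17877153-17983781). The stages overlapped, and the log2 change was 0.64 (95% interval -0.44 to 1.72, limma adjusted p = 0.318). With the letter c of the column names as a term beside stage, the estimate was 1.06 (adjusted p = 0.00662). With library weights it turned to -0.19.

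CUL4B, one of the paralogous scaffolds that bind DDB1, measured 5.82, 8.05 and 4.11 RPKM in GV and 11.8, 8.72 and 12 in MII (ENSBTAG00000018569, chrX:4752579-4783284). The MII values all lay above the GV values, yet the log2 change of 0.78 (95% interval 0.08 to 1.49) had a limma adjusted p of 0.074. It passed in 6 of 17 alternatives, among them quantile normalization (0.00837) and the fit without GV14c (0.048). Its paralog CUL4A was lower and overlapped between stages, at 1.45, 1.38 and 0.417 RPKM in GV and 3.02, 0.584 and 2.53 in MII (ENSBTAG00000020093, chr12:90562966-90588918, log2 change 0.48 ± 0.43, limma adjusted p = 0.402).

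CUL2, the scaffold of the VHL ligase, had the lowest mean of the cullins over all 6 libraries, although CUL4A was lower in GV. It measured 2.25, 1.3 and 1.46 RPKM in GV and 0.517, 0.818 and 0.242 in MII (ENSBTAG00000007133, chr13:18611492-18663829). Its stages did not overlap, and the log2 change of -0.81 (95% interval -1.51 to -0.11) had a limma adjusted p of 0.0643. It passed with library weights (0.000864).

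Of the 66 F-box loci, 32 were tested, 5 higher and 5 lower in MII, and 22 did not pass, so that 15.6% were higher and 15.6% lower against 13.4% and 26.9% of all tested genes. Their median log2 change was -0.01, with 16 positive and 16 negative values, and the stages did not overlap for 8 in each direction, near the 51.9% of all genes. The FBXO loci gave 4 rises and 3 falls among 22 tested, the FBXL loci 1 rise and 2 falls among 7, and none of the 3 FBXW loci passed. SKP2, itself an F-box protein, was counted apart because its symbol does not carry the family name.

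SKP2 had the largest rise of all 42 tested members. It is the F-box protein that recognises the CDK inhibitor p27 together with its cofactor CKS1. The locus ENSBTAG00000013562 (chr20:38078912-38116126, minus strand, 10 coding exons, coding sequence of 1275 bases) measured 8.07, 14.1 and 9.1 RPKM in GV and 44.9, 35.9 and 47.8 in MII. The lowest MII library was well above the highest GV library, and the mean rose 4.11-fold, from 10.4 ± 3.22 to 42.9 ± 6.2 RPKM (SD, n = 3; log2 change 1.97 ± 0.27, limma adjusted p = 0.000737). The call held in all 17 alternatives, with adjusted p from 2.1e-06 to 0.0081. The other 4 loci named SKP2 stayed at or below 0.489 RPKM.

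FBXL4, a mitochondrial F-box protein that restrains mitophagy, and FBXO45, which works with the RING protein MYCBP2, rose by similar amounts. FBXL4 (ENSBTAG00000005729, chr9:51506048-51560823) measured 11.4, 14 and 17.5 RPKM in GV and 32.7, 47.8 and 35.6 in MII, 2.7-fold higher by the means (log2 change 1.37 ± 0.26, limma adjusted p = 0.00344). FBXO45 (ENSBTAG00000006388, chr1:71710368-71720975) measured 7.9, 11.3 and 6.44 RPKM in GV and 21.8, 24.2 and 22 in MII, 2.65-fold higher (log2 change 1.34 ± 0.27, limma adjusted p = 0.00463). Neither gene's stages overlapped, and both calls held in all 17 alternatives.

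FBXO4, described as a receptor for cyclin D1 and for the telomere protein TRF1, was the most abundant of the F-box genes that rose. It measured 23.8, 26.5 and 20.9 RPKM in GV and 66, 50.1 and 60 in MII (ENSBTAG00000016981, chr20:32606323-32618878). With no overlap, its mean rose 2.47-fold, from 23.8 ± 2.81 to 58.7 ± 8 RPKM (SD, n = 3; log2 change 1.27 ± 0.22, limma adjusted p = 0.00229), and the call held in all 17 alternatives.

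FBXO48 and FBXO33 completed the rises. FBXO48 (ENSBTAG00000047772, chr11:66837193-66838229) measured 4.12, 3.42 and 3.07 RPKM in GV and 8.06, 11.9 and 10.3 in MII (log2 change 1.28 ± 0.29, limma adjusted p = 0.0078). FBXO33 (ENSBTAG00000006836, chr21:49746633-49766810) measured 14.9, 11.2 and 15.2 RPKM in GV and 34.2, 23.2 and 38.9 in MII (log2 change 1.14 ± 0.27, limma adjusted p = 0.00991). All MII values exceeded all GV values for both. Without both untitled columns their adjusted p were 0.0825 and 0.119, and without MII15c that of FBXO33 was 0.054.

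Among the 66 F-box loci taken by symbol, FBXO8 had the highest mean RPKM in GV. It had the largest fall of the tested members on the log2(RPKM + 1) scale, while by the ratio of means FBXL14 fell further (3.62-fold). The FBXO8 protein joins an F-box to a Sec7 domain, the catalytic domain of ARF exchange factors. The locus ENSBTAG00000006715 (chr8:6410510-6433394) measured 128, 122 and 150 RPKM in GV and 46.2, 32.1 and 42.5 in MII. No MII library came near a GV library, and the mean fell 3.31-fold, from 133 ± 15.1 to 40.3 ± 7.33 RPKM (SD, n = 3; log2 change -1.71 ± 0.22, limma adjusted p = 0.000499). The call held in all 17 alternatives, with adjusted p from 4.84e-06 to 0.0103.

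FBXO15, first known as a marker of undifferentiated embryonic stem cells, and FBXO22, a receptor for KDM4 histone demethylases, fell from similar GV levels. FBXO15 (ENSBTAG00000009686, chr24:4528752-4559540) measured 30.6, 33.2 and 16.5 RPKM in GV and 13.3, 8.29 and 6.56 in MII (log2 change -1.41 ± 0.35, limma adjusted p = 0.0121). FBXO22 (ENSBTAG00000002833, chr21:31714422-31739848) measured 19.4, 27.5 and 15.9 RPKM in GV and 11.8, 7.28 and 5.36 in MII (log2 change -1.29 ± 0.34, limma adjusted p = 0.0151). The stages did not overlap for either, although the highest MII value of each came close to its lowest GV value. The FBXO15 call was lost without GV14 (0.0529), without MII15c (0.055) and without both untitled columns (0.135), and the FBXO22 call without GV14c (0.0519), without MII15c (0.0664) and without both (0.163).

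FBXL14, a receptor for the transcription factor SNAI1, and FBXL13 fell from lower levels. FBXL14 (ENSBTAG00000007786, chr5:108612283-108613485, 1 coding exon) measured 6.79, 11.7 and 6.12 RPKM in GV and 2.13, 2.15 and 2.52 in MII (log2 change -1.45 ± 0.33, limma adjusted p = 0.00757). FBXL13 (ENSBTAG00000016324, chr4:44384161-44584754, 25 coding exons) measured 7.26, 4.43 and 8.91 RPKM in GV and 2.46, 1.77 and 2.54 in MII (log2 change -1.24 ± 0.33, limma adjusted p = 0.017). All MII values of both lay below all GV values. FBXL14 did not pass without both untitled columns (0.0762), and FBXL13 did not pass without GV14 (0.0666), without GV15 (0.064) or under quantile normalization (0.0907).

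Several of the most abundant F-box genes did not pass the test. FBXW7, the receptor for cyclin E and MYC, measured 46.5, 42.5 and 32.3 RPKM in GV and 75.5, 41.1 and 61.9 in MII (ENSBTAG00000007953, log2 change 0.52, 95% interval -0.10 to 1.14, limma adjusted p = 0.162). One MII library, MII15, lay within the GV range, and without it the adjusted p was 0.0373. FBXO34 measured 55.4, 54.1 and 40.4 RPKM in GV and 51.8, 91.3 and 60.9 in MII (ENSBTAG00000020533, log2 change 0.41 ± 0.26, limma adjusted p = 0.248). FBXL5, the iron-sensing receptor for the iron regulatory protein IRP2, measured 41.2, 56.8 and 34.3 RPKM in GV and 56.1, 45.9 and 49.4 in MII (ENSBTAG00000021214, log2 change 0.22 ± 0.24, limma adjusted p = 0.511). For FBXO34 and FBXL5 the stages overlapped.

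FBXO25, a relative of the muscle atrophy F-box protein FBXO32, changed little in the mean. Its 9-exon locus ENSBTAG00000007039 measured 29.6, 28.8 and 31 RPKM in GV and 37.4, 30.4 and 32.3 in MII (log2 change 0.15, 95% interval -0.32 to 0.63, limma adjusted p = 0.598). A second locus of that name, ENSBTAG00000037531, which has no coding sequence in the deposited annotation, measured 4.43, 2.98 and 4.84 RPKM in GV and 1.5, 4.1 and 1.03 in MII (log2 change -0.76 ± 0.40, limma adjusted p = 0.162).

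The 22 tested F-box loci that did not pass ranged in log2 change from -0.93 for FBXO10 to 0.78 for FBXO30, with 11 above and 11 below 0. FBXO30 had the smallest adjusted p of them, 0.0519. For 8 of the 28 members that did not pass, the stages did not overlap: FBXO30, CUL4B, FBXO32 and FBXL20 were higher in each MII library than in any GV library, and FBXO10, CUL2, FBXO42 and FBXO3 were lower. This was common in the table, where the stages did not overlap for 4501 of 8671 tested genes and only 3491 passed. FBXW11, the paralog of the receptor BTRC, gave 4.56, 12.7 and 7.61 RPKM in GV and 8.08, 4.66 and 5.42 in MII, with overlap (log2 change -0.33 ± 0.38, limma adjusted p = 0.529).

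The F-box mRNA pool had a like total at both stages but a different leading gene. Summed over the 66 F-box loci it was 543, 606 and 534 RPKM in GV and 619, 542 and 594 in MII, and the means of 561 ± 39.2 and 585 ± 39.3 RPKM (SD, n = 3) lay within 1 SD of each other. The number of F-box loci at 1 RPKM or more was 31, 34 and 34 in GV and 31, 31 and 32 in MII. FBXO8 was the leading F-box gene in every GV library, with 23.5%, 20.1% and 28.2% of the summed RPKM, and held 7.46%, 5.92% and 7.16% in MII. In MII14c and MII15c the leading gene was FBXW7 and in MII15 it was FBXO34. FBXO4 went from 4.39%, 4.37% and 3.91% of the pool in GV to 10.7%, 9.26% and 10.1% in MII.

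The 3 leading genes of a library took 42.3%, 38.4% and 42.1% of the F-box RPKM in GV and 31.9%, 34.9% and 30.8% in MII, a smaller share in each MII library than in any GV library. SKP1 alone exceeded the summed F-box pool 3.08, 3.04 and 4.07 times in GV and 4, 6.17 and 5.31 times in MII. These sums and ratios are descriptions with no test, and the SKP1 level is uncertain, as said above.

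**Figure D3:**
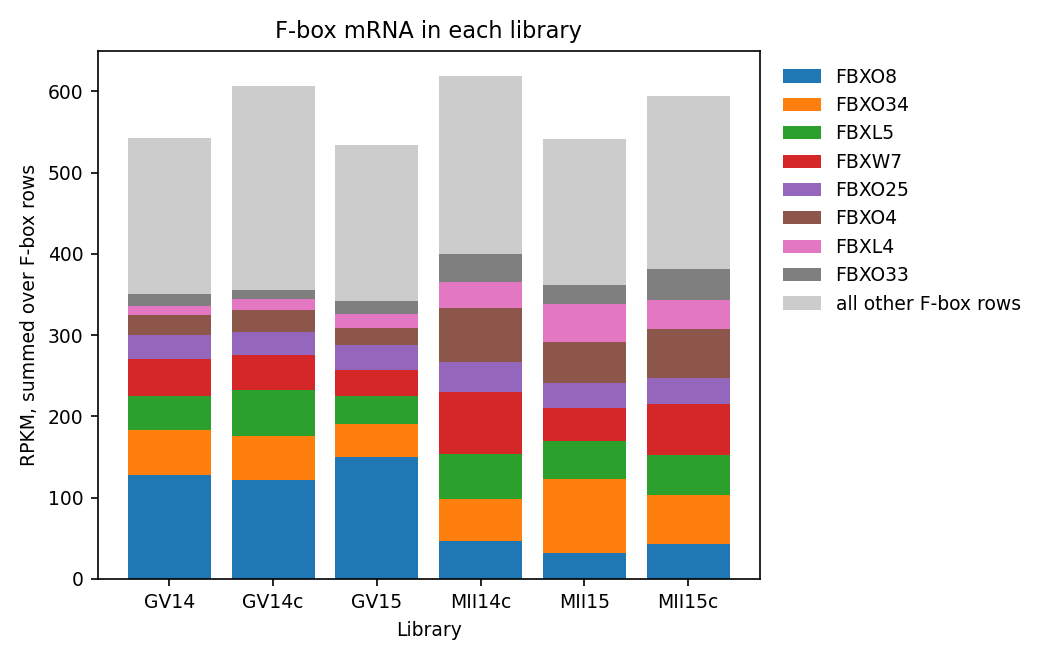
Summed RPKM of the 66 F-box loci in each of the 3 GV and 3 MII libraries, stacked by leading gene with all other loci pooled in grey. Bars reach 534 to 606 RPKM in GV and 542 to 619 RPKM in MII, the FBXO8 part is 122 to 150 RPKM in GV and 32.1 to 46.2 RPKM in MII, and the FBXO4 part is larger in MII.

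Of all 82 loci, 36 stayed under 1 RPKM in every library and 34 reached 1 RPKM in every library, 27 of the latter being F-box genes. Just inside the filter stood CUL2 at a mean of 1.1 RPKM, FBXO40 at 1.18, FBXO27 at 1.3 and FBXO42 at 1.34. Just outside stood FBXO36 at 0.999, FBXO47 at 0.961 and FBXO11 at 0.956, followed by FBXO16 at 0.609. FBXW2, FBXW5, FBXW8, FBXW9 and FBXW10 were all below the filter, as were FBXL2 and FBXL12. The 5 loci at 0 throughout were FBXL15, FBXO41, 2 loci named FBXO27 and 1 named SKP2.

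More than 1 locus carried each of 7 symbols, 21 loci in all: CUL1, FBXO3, FBXO16, FBXO25, FBXO27, SKP1 and SKP2. Of the tested members 5 had a single coding exon, namely the abundant CUL1 locus, the minor SKP1 locus, FBXL14, FBXO34 and FBXO27. The median coding length was 1220 bases for the 8 that rose, 1308 for the 6 that fell and 1605 for those that did not pass, against 1278 for all tested genes. The median genomic distance from the end of the coding sequence to the end of the annotated transcript was 408 bases for the rises, 449 for the falls and 1151 for the rest. Over all tested genes it was 794 bases, with 1344 for those that rose and 504 for those that fell. These are descriptions with no test, and the extended transcript ends rest on the same reads.

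The partners of these ligases were read from lists of 166 loci, of which 108 were tested, 15 higher, 24 lower and 69 not passed, with a median log2 change of 0.19. Those are 13.9% higher and 22.2% lower, near the 13.4% and 26.9% of all tested genes. Beside the up to 4 called genes of smallest p per list, other partners are named to complete small counts or as known cofactors, and were chosen after their values were seen. The count of rises depended on single libraries, falling to 9 without GV14, 9 without GV15, 8 without MII14c and 7 without MII15c. Over all genes the rises numbered 763, 762, 855 and 588 in those fits, in place of 1162. The neddylation and COP9 signalosome list stood lowest, with 12 of 22 tested loci lower, 3 higher and a median of -1.17, against -0.16 for all genes. The 54.5% lower stands against 26.9% of all genes, and the 13.6% higher is at the 13.4% of all genes.

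NEDD8 itself had the largest fall of that list on the log2(RPKM + 1) scale, while by the ratio of means UBE2F fell further (11-fold). Its 4-exon locus (ENSBTAG00000038842) measured 390, 475 and 451 RPKM in GV and 50.3, 45.9 and 61.1 in MII, an 8.37-fold lower mean (log2 change -3.05 ± 0.20, limma adjusted p = 2.13e-05). A second, single-exon NEDD8 locus (ENSBTAG00000021446) fell too, from 37 ± 4.43 to 5.54 ± 1.39 RPKM (SD, n = 3; log2 change -2.56, limma adjusted p = 0.000168). The signalosome subunits COPS6 (log2 change -2.85) and COPS4 (-2.41) fell with limma adjusted p of 7.91e-05 and 8.72e-05, and COPS3, COPS5, COPS7A and COPS7B fell as well, the COPS5 call being lost in 2 and the COPS7B call in 3 of 17 alternatives. The subunits COPS2 (log2 change -0.24, limma adjusted p = 0.393), COPS8 (0.02, 0.966) and GPS1 (-1.19, 0.158) did not pass. Both NEDD8-conjugating enzymes fell, UBE2F (log2 change -2.60, limma adjusted p = 0.00152) and UBE2M (-1.52, 0.0101). Both loci named SENP8, the NEDD8 protease, also fell (limma adjusted p = 0.00412 and 0.0281), and the lower of them lost its call in 8 of the 16 alternatives that tested it.

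The 3 rises were NAE1, a subunit of the NEDD8-activating enzyme, DCUN1D5, a co-factor of NEDD8 transfer, and RNF7, the RING partner of CUL5. NAE1 had means of 104 ± 5.08 and 206 ± 12.1 RPKM in GV and MII (SD, n = 3), with a log2 change of 0.98 (limma adjusted p = 0.00308). DCUN1D5 had means of 53.9 ± 2.98 and 115 ± 19.7 RPKM, with a log2 change of 1.07 (limma adjusted p = 0.00388). RNF7 measured 9.15, 9.82 and 9.7 RPKM in GV and 16.4, 17.6 and 26 in MII (log2 change 0.97, limma adjusted p = 0.0188), a call lost in 4 of 17 alternatives.

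The name of the RING protein RBX1 stood at a locus that has no usable symbol. ENSBTAG00000012081 is named RBX1 in the deposited annotation (chr4:62081000-62081326, plus strand, 1 coding exon of 327 bases), lies outside the symbol rule, and was added after its values were seen. It measured 96.3, 150 and 124 RPKM in GV and 42.2, 29.3 and 43.7 in MII. The stages did not overlap, and the mean was 3.21-fold lower in MII (log2 change -1.66 ± 0.25, limma adjusted p = 0.00116). Reads from a many-exon RBX1 gene could be counted at this single-exon locus, so its level is uncertain.

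The substrate adaptors of CUL3 gave 4 rises and 2 falls among 24 tested (median log2 change 0.32), or 16.7% higher and 8.33% lower against 13.4% and 26.9% of all genes. The rises were KLHL5 (1.58), KBTBD2 (1.62), KBTBD8 (1.43) and KLHL7 (0.89), and the falls KCTD9 (-1.47) and KEAP1 (-1.05), the receptor for the oxidative stress factor NRF2. The KBTBD8 call was lost in 4 of 17 alternatives, among them those without GV14 (limma adjusted p = 0.0567) and without MII14c (0.0584). The KLHL7 call was lost in 7 of 17 alternatives and the KEAP1 call in 4 of 16.

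The CUL4 adaptors gave 4 rises and 4 falls among 23 tested (median log2 change 0.23), or 17.4% each way against the same 13.4% and 26.9%. DDB2, the receptor for ultraviolet DNA damage, measured 25.5, 44.4 and 27.2 RPKM in GV and 3.91, 1.76 and 2.04 in MII (log2 change -3.23, limma adjusted p = 0.000173). ERCC8, the receptor of transcription-coupled repair, measured 17.1, 6.63 and 15.4 RPKM in GV and 1.27, 0.948 and 0.528 in MII (log2 change -2.80, limma adjusted p = 0.000808). WDR61 (log2 change -1.47) and DCAF4 (-2.09) also fell. The rises were DDB1, the adaptor itself (1.52, limma adjusted p = 0.0371), BRWD1 (1.17), DCAF6 (0.92) and PHIP (1.04), whose calls were lost in 5, 4, 7 and 8 of 17 alternatives. DDB1 overlapped between stages, at 1.09, 5.21 and 1.27 RPKM in GV and 11, 4.29 and 9.83 in MII.

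The CUL2 and CUL5 adaptors gave 2 rises and 3 falls among 23 tested (median log2 change 0.37), or 8.7% higher and 13% lower against 13.4% and 26.9% of all genes. ASB3 rose (log2 change 1.37), as did PCMTD1 (1.26), and KLHDC10 (-1.44) and WSB2 (-1.62) fell. A locus named ASB6 (ENSBTAG00000042440), which has no coding sequence in the deposited annotation, fell most. It went from 52.1, 80 and 49.6 RPKM in GV to 7.18, 6.67 and 6.2 in MII (log2 change -2.97, limma adjusted p = 7.13e-05). The 6-exon ASB6 locus (ENSBTAG00000008973) stayed at or below 0.839 RPKM and was not tested. Neither the tested exchange factor nor the tested inhibitor passed. CAND1, which swaps F-box modules on CUL1, measured 43.1, 49.3 and 46.2 RPKM in GV and 31.2, 26.7 and 34.1 in MII without overlap (log2 change -0.58, limma adjusted p = 0.0553), and GLMN, which blocks RBX1, gave a log2 change of 0.26 (limma adjusted p = 0.468).

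Among E2 enzymes, E3 partners and the CKS proteins 1 of 12 tested loci rose and 2 fell (median log2 change 0.21), or 8.33% and 16.7% against 13.4% and 26.9% of all genes. CDC34, the E2 that extends ubiquitin chains on SCF substrates, measured 4.17, 4.18 and 2.79 RPKM in GV and 0.826, 0.058 and 0.451 in MII (log2 change -1.73, limma adjusted p = 0.00362). UBE2D4 fell as well (-1.29), a call lost in 5 of 16 alternatives, among them those without GV14 (0.0581), without MII15c (0.0819) and without both untitled columns (0.173). CKS2, a small CDK-binding protein needed for female meiosis in mice, measured 982, 981 and 1336 RPKM in GV and 1602, 2635 and 1881 in MII (log2 change 0.87 ± 0.25, limma adjusted p = 0.0214). That call was lost in 6 of 17 alternatives, among them those without GV14 (0.0723), GV14c (0.0567), MII15 (0.0518) or MII15c (0.0636). CKS1B, the cofactor of SKP2, was higher still, at 2591, 3152 and 3526 RPKM in GV and 3330, 5110 and 4053 in MII, with overlap (log2 change 0.42, limma adjusted p = 0.195).

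Of 6 F-box genes that carry other names, 2 were tested. LMO7 measured 26.8, 22.7 and 17.7 RPKM in GV and 51.4, 33.4 and 46.6 in MII (log2 change 0.93 ± 0.26, limma adjusted p = 0.0199). Its call was lost in 4 of 17 alternatives, among them those without GV15 (0.0752), MII14c (0.0635) or MII15c (0.0782). BTRC, the receptor for phosphorylated beta-catenin and EMI1, measured 14.9, 18.5 and 16.7 RPKM in GV and 12.3, 6.51 and 8.99 in MII (log2 change -0.82 ± 0.29, limma adjusted p = 0.0484). The BTRC call was lost in 12 of 17 alternatives, with adjusted p from 0.00664 to 0.238, including each fit that left out 1 library other than MII14c (0.093 to 0.122). Neither CUL7 and CUL9 partner reached the filter.

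**Figure D4:**
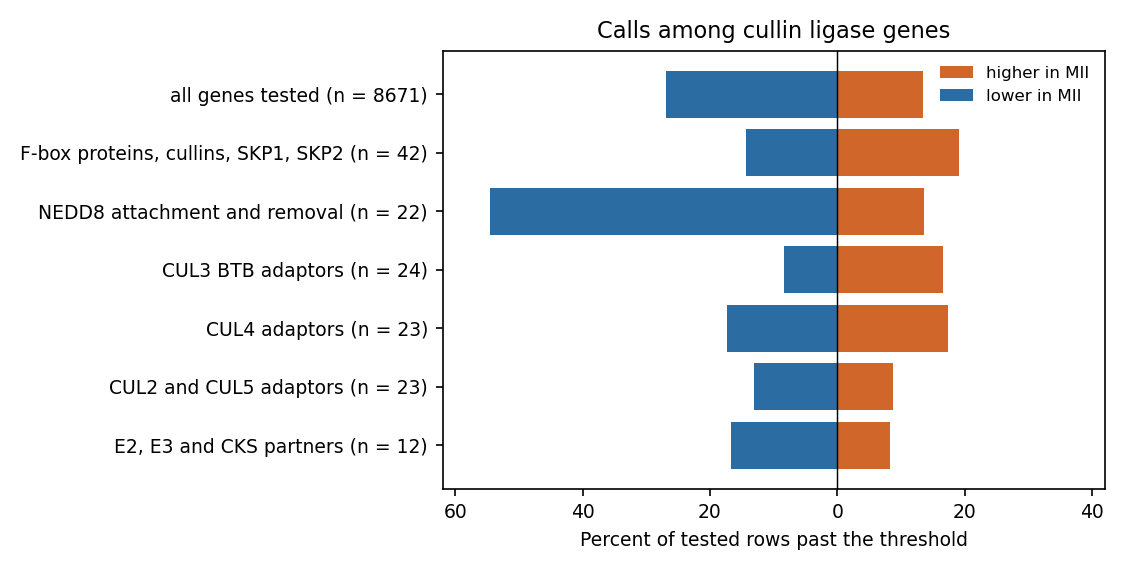
Percent of tested loci higher (right of 0) and lower (left of 0) in MII for all genes, for the F-box, cullin and SKP loci, and for 5 partner lists. Loci of NEDD8 attachment and removal are 54.5% lower and 13.6% higher, while the F-box, cullin and SKP loci are 14.3% lower and 19% higher.

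Several points of the method and the labels bear on every value above. Reverse transcription with this kit starts at poly(A) tails, so a level reflects both transcript number and tail capture, and RPKM is relative to each library's total, so less RNA per oocyte would not show. Nothing says that the libraries come from separate animals or that those with the letter c are further oocytes, so p-values measure only the spread between these libraries. The adapter dilution was 1 in 30 (GV14) and 1 in 10 (GV15), but 1 in 50 in the titled MII columns. Dilution therefore cannot be told apart from stage among the titled columns. The titles GV15c (1 in 10) and MII14 (1 in 30, as GV14) match no column, and whether the untitled columns are those samples is not stated.

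Of 11 oocyte marker loci found, all were tested and 8 were lower in MII, or 72.7% against 26.9% of all tested genes. Their summed level ran from 6969 to 9980 RPKM in GV and from 2885 to 3802 in MII. Cumulus and granulosa markers, from the cells that surround the oocyte, summed to 98.6 to 165 RPKM in GV and 103 to 109 in MII over 16 loci. AMHR2, LHCGR and PTX3 were at 0, and of the 4 tested HAS2 was higher and STAR and CD44 were lower. Blood cell markers summed to 90.4 to 169 RPKM in GV and 2.4 to 6.53 in MII, nearly all of it CD52, with all 4 HBB loci at 0. The part of these cells in the results was not tested.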

How the data were processed

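The authors deposited 1 table of RPKM for 20707 Ensembl loci in 6 single-oocyte libraries and 1 annotation file with coordinates, exons and read support, per the file headers. Library cDNA was made with the SMARTer Ultralow kit and sequenced as single reads, per the labels' protocols. The submitters' processing notes name DESeq without its role. Which aligner, counter and build served is not given in the sources used here, and coordinates are those of the deposited annotation, counted from 1. Stage came from the titles, and the columns GV14c and MII15c, which match no title, were used by stage only, while the titles GV15c and MII14 match no column.

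Depth was recovered from low RPKM of models that are coding sequence alone (3634 models): 20.22 to 29.91 M reads in GV and 21.27 to 32.47 M in MII, with 95.6% to 99.5% of low values within 0.1 of a whole read. At those depths 1 RPKM of a 2 kb model is 40.4 to 64.9 reads, which bounds counting error only.

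Loci with a mean of at least 1 RPKM (8671) were tested with limma 3.58.1 in R 4.3.3 (lmFit, eBayes with trend) on log2(RPKM + 1) with stage as the term. Adjustment was by Benjamini-Hochberg over all of them, at a threshold of 0.05. Fold changes on this scale understate those of low genes. Count models were not used, since RPKM are scaled values. The fit was also run on simulated data, and nothing above rests on that run. The members, the lists and the tests were chosen with earlier results of these data known. The naming rule took every SKP1, SKP2 and CUL locus, the 8 largest F-box rises and falls, the 5 most abundant F-box genes of each stage, and up to 4 genes of smallest p per partner list. Alternatives were other pseudocounts, filters, scalings, library weights, added terms, and leaving libraries out.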

Additional observations from a re-analysis of the deposited data

How the results depend on the processing

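With 3 libraries a stage, the counts moved with the settings. Members higher in MII, 8 as reported, numbered 15 under quantile normalization, 16 with library weights, 4 without both untitled columns and 6 to 10 when 1 library was left out. Members lower, 6 as reported, numbered 11 with library weights, 2 without both untitled columns and 4 to 7 when 1 library was left out. The counts over all genes moved too. Higher genes, 1162 as reported, numbered 928 with no filter, 1683 with median-ratio scaling and 2087 under quantile normalization. They numbered 2262 with library weights and 357 without both untitled columns. Lower genes, 2329 as reported, numbered 3220 with library weights and 1286 without both untitled columns. Partner genes higher, 15 as reported, numbered 9 with no filter, 24 with median-ratio scaling, 28 under quantile normalization, 34 with library weights, 7 without both untitled columns and 7 to 19 when 1 library was left out, and partner genes lower, 24 as reported, 19 to 26. Over all alternatives the latter ran from 17 without both untitled columns to 33 when the letter c was a term, and library weights gave 32. Median-ratio scaling moved the median of all genes to 0.07 and that of the members to 0.46, quantile normalization to 0.22 and 0.52, and a constant sum to -0.05 and 0.32.

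With the number 14 or 15 as a replicate block, 8 members were higher and 6 lower, and SKP1 had an adjusted p of 0.0581 and CUL4B of 0.0476. Same-numbered libraries of the 2 stages correlated at -0.01, 0.33, 0.43 and -0.23 in their deviations from the stage means, not all above 0.1. Libraries alike in the letter c correlated at 0.33, 0.07, 0.43 and 0.26, and those unlike in it from -0.41 to -0.01. With the letter as a term, 9 members were higher and 8 lower, and 2975 of all genes were lower in place of 2329.

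Directions turned for CUL5 with library weights (-0.19) and for the 21-exon CUL1 locus at a pseudocount of 0.1 (-0.0014), with the letter c as a term (-0.05), without both untitled columns (-0.21), and, over single libraries left out, from -0.28 to 0.65, with -0.08 without GV14c and -0.01 without MII15c. The cause was not tested. Over the tested genes that the naming rule took, 680 values kept their direction and their side of the threshold, 56 lost a call, 13 gained one and 7 turned. Other genes named above are not in those counts. Among them PHIP lost its call in 8 alternatives, and FBXO30 gained one in 7. At these depths 1 RPKM of a 2 kb model is 40.4 to 64.9 reads, and loci below a mean of 1 RPKM were not tested.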
